A study of Mus musculus with 15 samples.

Results

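Leucine tRNA fragments are the 5 entries named LeuAAG, LeuCAA, LeuCAG, LeuTAA and LeuTAG, out of 47 tRNA-derived fragments (tRFs) measured in mouse sperm. Members were chosen by name, as all tRFs assigned to a leucine tRNA, and each name gives the amino acid and the anticodon of that tRNA. LeuCAG was among the better represented tRFs in most libraries and LeuAAG and LeuTAG stood nearer the middle, whereas LeuCAA and LeuTAA were near the bottom of the list. None of the 5 passed the test between diets or generations at an adjusted p under 0.05. LeuAAG and LeuTAG followed each other closely from library to library, and LeuCAG followed neither.

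Leucine tRNAs bring leucine to the ribosome and come in several isoacceptors, that is, tRNAs that carry the same amino acid but differ in the anticodon. LeuAAG, LeuCAG and LeuTAG read codons that start with C, and LeuCAA and LeuTAA read codons that start with T. Together with serine and selenocysteine tRNAs they form class II, recognised by a long variable arm. Fragments of tRNAs, mostly from the 5′ part, are a prominent class of small RNA in mature sperm, and much of this load is known to be gained as sperm pass through the epididymis.

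Small RNA was sequenced from caudal epididymal sperm of C57BL/6 males, of the substrain C57BL/6NTac. F0 males were given a control (CO) or obesity-inducing (OID) diet for 7 weeks (CO F0, n = 3; OID F0, n = 4), and F1 males, the sons of CO or OID fathers, were themselves kept on the CO diet (CO F1, n = 4; OID F1, n = 4). F1 males are therefore grouped by the diet of the father, and the F0 mothers had been reared on the CO diet. Somatic cells were lysed, and RNA of the tRF size range was cut from a gel of pooled, barcoded samples, so that full-length tRNAs were not the target. The table holds small RNAs alone, so the labelled cell type could not be checked against sperm mRNAs.

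The libraries differed widely in depth, from 17966 to 5363471 tRF reads, and the reads on leucine tRFs ranged from 272 to 137085. The 2 shallowest libraries were CO F0 replicate 3, with 17966 tRF reads, and CO F1 replicate 2, with 35677. Depth also went with diet and with generation. The median was 271812 tRF reads in CO F0 and 1167991 in OID F0, and 680741.5 in CO F1 and 3221587 in OID F1. Neither diet nor generation can therefore be fully told apart from depth. A normalised value is a read number scaled by 1 factor for each library, with 0.5 added. A single read was worth 48.2 in CO F0 replicate 3, 18.8 in CO F1 replicate 2 and 0.105 in OID F0 replicate 1. Values are not divided by fragment length. Several leucine differences that moved without 1 of the shallow libraries are given with and without it. In bulk sperm RNA, fewer cells with a fragment and fewer fragments per cell cannot be told apart. Nothing says that males of a group came from separate litters, and p-values measure the spread between these samples alone.

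The genes behind the 5 names are spread over the genome. RefSeq annotates 25 leucine tRNA loci on 9 chromosomes of GRCm38.p6. LeuCAG has 10 of them, LeuAAG 5, LeuCAA 4, LeuTAA 3 and LeuTAG 3. Of the LeuCAG loci, 5 lie together on chromosome 1 between 171038614 and 171101920. The LeuCAA loci are 105 to 107 bp long, against 82 or 83 bp for the other isoacceptors, since leucine tRNA genes of this anticodon carry an intron that is spliced out of the tRNA. Of the 25 loci, 3 lie inside another annotated gene (GENCODE M21): n-TLcag1 in Naaladl2 and n-TLcag2 in Sgcz, both outside exons, and n-TLtaa3 in the lincRNA gene B230208H11Rik, where it overlaps an exon. The mitochondrial genome encodes further leucine tRNAs with the anticodons TAA and TAG, and whether fragments of these were counted under LeuTAA and LeuTAG is not given in the sources used here.

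The sequences are shown because the anticodon, in capitals, is what separates the isoacceptors, and because the stretch before it holds most of what a 5′ fragment would carry. Stretches of a LeuAAG and a LeuTAA locus could be read in these GRCm38 references. n-TLaag4 lies on the plus strand at chr7:120917528-120917598, bases 12 to 82 of the 82 bp locus, read from RefSeq, and n-TLtaa3 lies on the minus strand at chr10:12922574-12922653, bases 1 to 80 of the 83 bp locus and read from GENCODE M21.
n-TLaag4 (LeuAAG): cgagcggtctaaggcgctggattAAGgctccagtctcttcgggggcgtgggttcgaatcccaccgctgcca
n-TLtaa3 (LeuTAA): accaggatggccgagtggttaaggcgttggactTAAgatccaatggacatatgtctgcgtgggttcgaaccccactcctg
Between base 12 of the tRNA gene and the anticodon, 19 of 23 aligned positions were the same in the 2 loci, with 1 gap.

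LeuCAG, the tRF of the tRNA that reads CTG, held the highest level of the 5 in 14 of 15 libraries. Among all 47 tRFs it ranked between 6 and 20, with a median of 8. Its normalised values were 9812, 16874 and 9877 in CO F0, 5925, 6322, 7196 and 7983 in OID F0, 2030, 9252, 11464 and 10176 in CO F1, and 13115, 5726, 11446 and 11794 in OID F1, in the order of the replicate numbers. The 4 OID F0 males were all below the 3 CO F0 males, while in F1 the groups overlapped. CO F1 replicate 1 was the lowest of all libraries, with 7841 LeuCAG reads behind its value.

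LeuAAG and LeuTAG were the next in order. LeuAAG ranked 11 to 22 of the 47 tRFs (median 17) and LeuTAG 17 to 30 (median 21). LeuAAG had values of 3295, 2792 and 1976 in CO F0, 2140, 2038, 2985 and 1224 in OID F0, 3982, 1671, 6267 and 4161 in CO F1, and 2248, 2812, 2595 and 4057 in OID F1. LeuTAG had 1738, 1395 and 1060, then 1043, 917.8, 1679 and 521.3, then 1860, 882.5, 3143 and 2164, and then 1166, 1381, 1370 and 2023 in the same order of groups. For both tRFs OID F0 replicate 4 was the lowest library and CO F1 replicate 3 the highest, and the diet groups overlapped in both generations.

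LeuCAA and LeuTAA, which read codons starting with T, were far lower. LeuCAA ranked 35 to 43 (median 39) and LeuTAA 43 to 46 (median 45). The normalised value of LeuCAA was 60.4, 75.4 and 145 in CO F0, 165, 130.1, 199.8 and 91.5 in OID F0, 130.9, 94.3, 191.1 and 174 in CO F1, and 180, 204.9, 159.6 and 244 in OID F1. The highest CO F0 value came from the shallowest library and rested on 3 reads, against 38 and 29 reads in the other CO F0 libraries. LeuTAA had values of 32, 49.6 and 48.7 in CO F0, 53.6, 17.1, 33.7 and 30.1 in OID F0, 30.3, 0.5, 42.8 and 36.0 in CO F1, and 33.5, 59.8, 45.2 and 37.8 in OID F1. The value of 0.5 in CO F1 replicate 2 stands for 0 reads, which allows up to 0.00841% of the tRF reads of that library, above the shares of 0.0043% to 0.00706% in the other CO F1 libraries. A lower level of LeuTAA in that male was therefore not detectable at this depth. LeuTAA in CO F0 replicate 3 rested on 1 read.

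**Figure D1:**
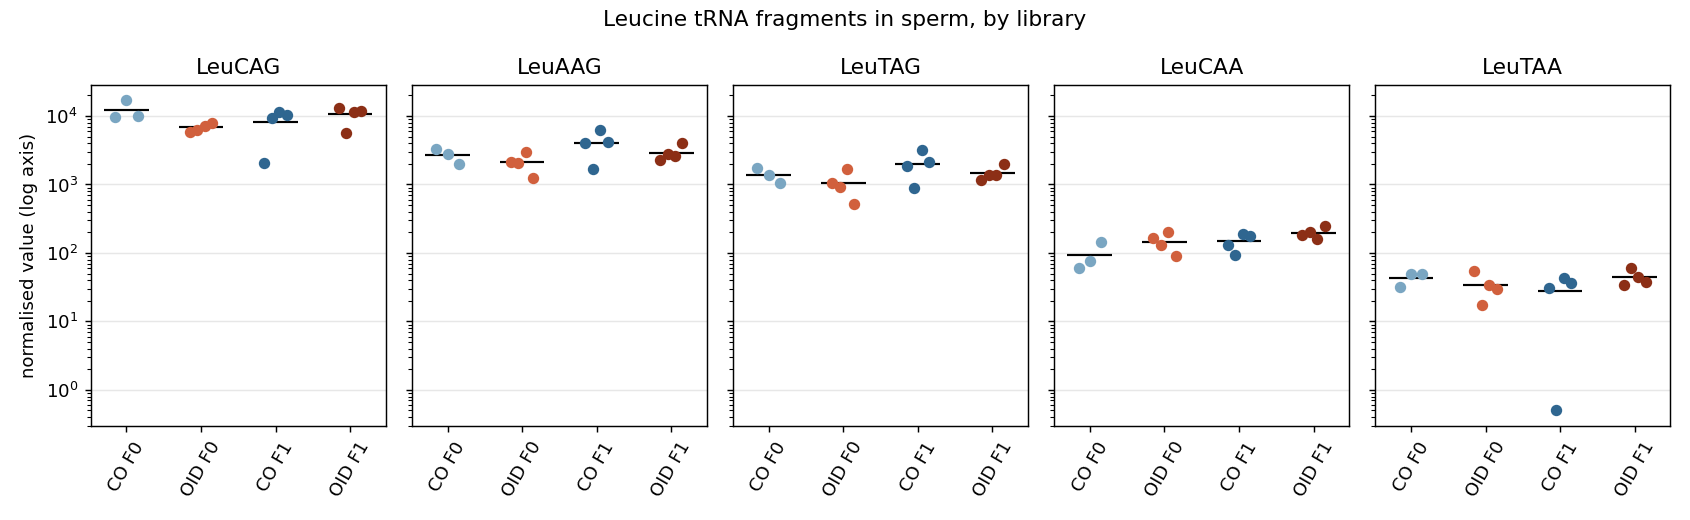
Normalised value (log axis) of each leucine tRF in each library, by group (CO F0, n = 3; the other groups, n = 4); each point is 1 library. LeuCAG, LeuAAG and LeuTAG sit well above LeuCAA and LeuTAA, and the lowest LeuTAA point, at 0.5, is the library with 0 reads.

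The order of the levels was nearly fixed. LeuCAG was above LeuAAG in 14 of 15 libraries, with CO F1 replicate 1 as the exception, and the ratio of their values ran from 0.51 to 6.52 (median 2.98). LeuAAG was above LeuTAG in 15 of 15 libraries, with a ratio of 1.78 to 2.35 (median 1.99). LeuTAG was 5.7 to 28.8 times LeuCAA (median 8.4), and LeuCAA 1.52 to 189 times LeuTAA (median 4.33), each in 15 of 15 libraries. The upper end of the last range comes from the library with 0 LeuTAA reads.

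Summed over the 5 isoacceptors, leucine made up a small part of the tRF values. The sum was 2.77%, 3.02% and 1.51% of the total of all tRF values in CO F0 libraries and 1.65%, 0.96%, 2.3% and 0.873% in OID F0 libraries. In F1 it was 1.16%, 1.78%, 3.37% and 3.32% in CO and 2.26%, 1.54%, 2.24% and 2.78% in OID libraries. Groups overlapped in both generations. CO F0 males had a mean of 2.43% ± 0.806 (SD, n = 3) and OID F0 males one of 1.45% ± 0.667 (SD, n = 4), a difference of -0.988 percentage points that did not exceed the spread (exact permutation test, two-sided, p = 0.171). The sons had a mean of 2.41% ± 1.11 (SD, n = 4) for CO and 2.21% ± 0.51 (SD, n = 4) for OID, a difference of -0.201 points (exact permutation p = 0.714). With GlyGCC and GluCTC left out of the denominator, the CO F0 shares were 8.87%, 13.5% and 8.41%. The OID F0 shares were 5.41%, 4.17%, 7.43% and 3.59%. On this larger base the difference was -5.11 points, with every OID F0 male below every CO F0 male (exact permutation p = 0.0571). Rescaling all tRFs in the same way moved their median F0 log2 difference from 0.02 to -0.33. How many tRFs separate the groups on that scale was not counted. The smallest p that these designs allow is 0.0571 in F0 and 0.0286 in F1.

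Within the leucine sum, LeuCAG dominated. Its mean share in F0 was 73.6% ± 7.15 (SD, n = 3) for CO and 67.8% ± 9.36 (SD, n = 4) for OID, and its mean share in F1 was 54.6% ± 21.9 (SD, n = 4) for CO and 68.2% ± 9.7 (SD, n = 4) for OID. LeuAAG held 16.8% ± 4.68, 20.4% ± 5.47, 29.5% ± 14.9 and 20% ± 6.28, and LeuTAG 8.77% ± 2.59, 10% ± 3.59, 14.6% ± 6.52 and 10.1% ± 2.87 in the same order of groups. LeuCAA held between 0.622% ± 0.42 in CO F0 and 1.43% ± 0.373 in OID F0 males, and the group means of LeuTAA ran from 0.2% to 0.335%. The wide spread in CO F1 came with 1 library. In CO F1 replicate 1 LeuCAG held 25.3% of the leucine sum (95% Wilson interval 24.8% to 25.8%, counting error only), LeuAAG 49.6% and LeuTAG 23.2%.

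**Figure D2:**
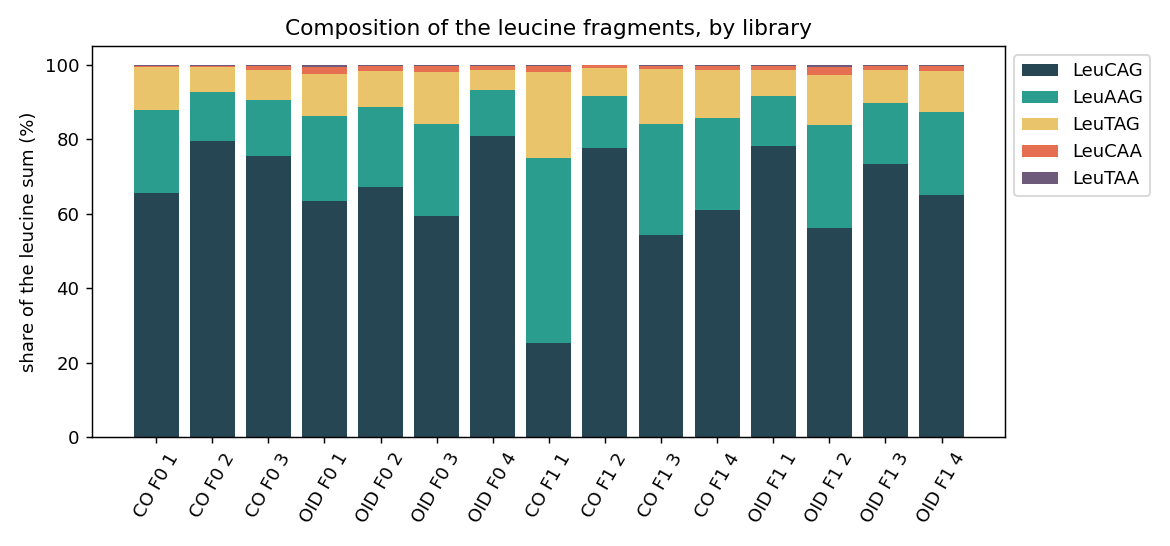
Share of each isoacceptor in the leucine sum (percent, stacked bars from 0), 1 bar per library. LeuCAG is the largest block in all libraries but CO F1 replicate 1, where it holds 25.3% and LeuAAG 49.6%.

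Isoacceptor shares do not depend on the scaling of a library, and none of them separated the diets. Over the 5 isoacceptors and both generations, the 10 two-sided exact permutation tests gave p between 0.114 and 0.743, and 0.643 to 0.743 after Benjamini-Hochberg adjustment, and the groups overlapped in all 10. The lowest p was that of LeuCAA in F0, whose share was 0.404%, 0.356% and 1.11% in CO males and 1.77%, 1.38%, 1.65% and 0.929% in OID males. The CO value of 1.11% is the one that rests on 3 reads (95% Wilson interval 0.376% to 3.19%).

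The diet comparison of each tRF in F0 asked whether sperm of OID males carried more or less of it than sperm of CO males. LeuCAG was lower in OID F0, at 6857 ± 920 (SD, n = 4) against 12188 ± 4058 (SD, n = 3), or 0.563 times the CO mean. On the log2(value + 1) scale the difference was -0.79 (SE 0.30, 95% interval -1.49 to -0.09), with an unadjusted limma p of 0.031 and an adjusted p of 0.162 over the 47 tRFs, so it did not pass the test. No OID value reached the lowest CO value, which gives the smallest exact permutation p that 3 against 4 allow, 0.0571. In this comparison 21.3% of all tRFs had an unadjusted p under 0.05, 10.6% had every OID male below every CO male and 0% had an adjusted p under 0.05. A limma-voom fit on the reads called 5 tRFs, with no leucine tRF among them. LeuCAG was the only leucine tRF, 1 of 5, with an unadjusted p under 0.05. Without CO F0 replicate 2, the male with the value of 16874, the difference was -0.53.

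The other leucine tRFs in F0 had intervals that included 0. LeuAAG differed by -0.40 (95% interval -1.25 to 0.46, limma adjusted p = 0.552), LeuTAG by -0.52 (-1.50 to 0.47, limma adjusted p = 0.513) and LeuTAA by -0.44 (-1.39 to 0.51, limma adjusted p = 0.552). With each male left out in turn these ran from -0.6 to -0.16 for LeuAAG, -0.79 to -0.23 for LeuTAG and -0.69 to -0.16 for LeuTAA, nearest to 0 without OID F0 replicate 4 for LeuAAG and LeuTAG and without OID F0 replicate 2 for LeuTAA. LeuCAA had the opposite sign, at 0.69 (-0.27 to 1.64, limma adjusted p = 0.436). Without the shallow CO F0 library its log2 difference was 1.05 (limma adjusted p = 0.162), and the remaining CO values of 60.4 and 75.4 were below the lowest OID value of 91.5. That separation rests on these CO males alone, and how many of the 47 tRFs separate in this way was not counted. Of the 5 members 4 had a negative difference, as did 23 of all 47 tRFs, and the median was -0.44 against 0.02 over all tRFs.

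In F1 the comparison asked whether sons of OID fathers differed from sons of CO fathers. LeuCAG averaged 8230 ± 4232 (SD, n = 4) among CO sons against 10520 ± 3276 (SD, n = 4) among OID sons, a log2 difference of 0.55 (SE 0.53, 95% interval -0.62 to 1.72, limma adjusted p = 0.557). This value rests on CO F1 replicate 1, without which it was -0.03 (SE 0.32, limma adjusted p = 0.933). LeuAAG and LeuTAG differed by -0.35 (-1.22 to 0.53) and -0.33 (-1.17 to 0.51), both with a limma adjusted p of 0.599. Without the shallow CO F1 replicate 2 they were -0.72 and -0.68, without CO F1 replicate 3 they were -0.08 and -0.07, and with log2 depth as a covariate they were -1.07 (limma adjusted p = 0.0972) and -0.98 (limma adjusted p = 0.152). LeuCAA differed by 0.45 (-0.20 to 1.10, limma adjusted p = 0.376), and by 0.25 (limma adjusted p = 0.494) without CO F1 replicate 2. LeuTAA differed by 1.41 (-0.57 to 3.39, limma adjusted p = 0.376) with the library of 0 reads and by 0.25 (limma adjusted p = 0.494) without it. None of the 5 leucine tRFs had an unadjusted p under 0.05, against 17% of all tRFs in this comparison. No leucine tRF had every OID male below every CO male, which held for 8.51% of all tRFs. The median over the members was 0.45, against 0.08 over all tRFs, and 0% of tRFs had an adjusted p under 0.05.

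**Figure D3:**
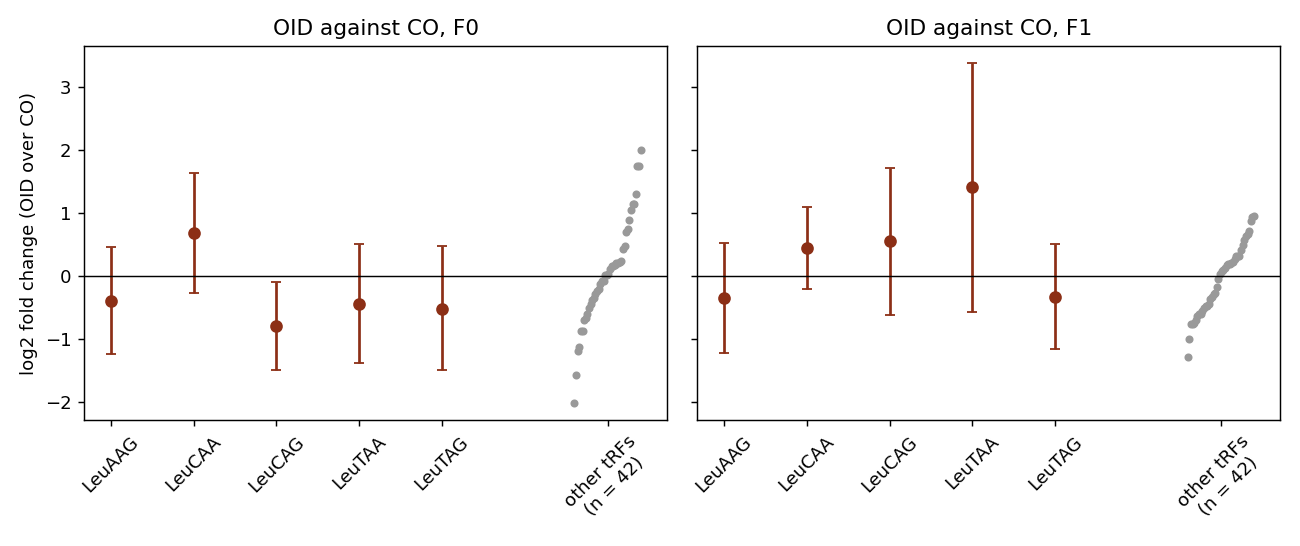
Log2 fold change of OID over CO with its 95% interval for each leucine tRF, in F0 (left) and F1 (right), beside the fold changes of the other tRFs. In F0 the interval of LeuCAG, -1.49 to -0.09, is the only leucine one that leaves out 0, and in F1 all 5 include it.

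Whether the diet difference itself differed between generations was tested with an interaction term over all 4 groups. For LeuCAG the F1 difference exceeded the F0 difference by 1.34 on the log2 scale (SE 0.68, 95% interval -0.08 to 2.77), with an unadjusted limma p of 0.0633 and an adjusted p of 0.657. Without CO F1 replicate 1 it was 0.76 (SE 0.49). LeuTAA gave 1.85 (SE 1.09, limma adjusted p = 0.657) with the library without LeuTAA reads and 0.69 (SE 0.54) without it. LeuAAG, LeuCAA and LeuTAG gave 0.05, -0.24 and 0.19, each with a limma adjusted p of 0.988. The share of all tRFs with an unadjusted p under 0.05 was 4.26%, and no leucine tRF was among them. Intervals of this width do not show that the F0 and F1 differences are alike. No tRF (0%) had an adjusted p under 0.05.

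Fathers and sons were compared within each diet lineage. In the OID lineage all 5 leucine tRFs had higher values in F1 than in F0, by 0.52 (LeuAAG), 0.46 (LeuCAA), 0.56 (LeuCAG), 0.45 (LeuTAA) and 0.60 (LeuTAG) on the log2 scale. Of all 47 tRFs 23 were higher in F1. The median of the leucine tRFs was 0.52, against -0.06 over all tRFs, and limma adjusted p-values ran from 0.45 to 0.481. None had an unadjusted p under 0.05, against 17% of all tRFs. With log2 depth as a covariate the differences were 0.28 (LeuAAG), 0.20 (LeuCAA), 0.68 (LeuCAG), 0.00 (LeuTAA) and 0.31 (LeuTAG). In the CO lineage LeuAAG, LeuCAA and LeuTAG were higher in F1, by 0.46, 0.70 and 0.42, and LeuCAG and LeuTAA lower, by -0.78 and -1.39, with limma adjusted p-values of 0.84 to 0.842. Both lower values rest on 1 library each: LeuCAG was -0.20 without CO F1 replicate 1, and LeuTAA -0.24 without CO F1 replicate 2, the library of 0 reads. Without CO F1 replicate 2, LeuAAG, LeuCAA and LeuTAG were 0.84, 0.90 and 0.77. Without CO F0 replicate 3 they were 0.26, 1.07 and 0.23. The share of all tRFs with an unadjusted p under 0.05 was 2.13% in the CO lineage. In both lineages 0% had an adjusted p under 0.05. Each generation comparison shares its samples with the diet comparisons.

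LeuAAG and LeuTAG tracked each other closely. Over the 15 libraries Pearson's r of their log2 values was 0.988 and Spearman's rho 0.986, both with a permutation p of 1e-05, the smallest that the resamples allow, and a Benjamini-Hochberg adjusted p of 0.0001 over the 10 pairs of leucine tRFs. Without OID F0 replicate 4 and CO F1 replicate 3, the libraries farthest from the median of LeuAAG, r was 0.979. With the group means removed r was 0.984, and it was 0.991 and 0.995 within the CO and OID groups of F0 and 0.996 and 0.993 within those of F1, on 3 or 4 libraries each. The SD of the log2 ratio was 0.104, against a median of 0.93 over all 1081 pairs of tRFs. Ordered by r, the pair stood first among the 1081, where the median r was -0.03 and 6 pairs reached 0.9 or more. The other pairs of that height were ProAGG with ProCGG, ProCGG with ProTGG, ProAGG with ProTGG, ValAAC with ValCAC, and GlyCCC with GlyGCC, each of them isoacceptors of 1 amino acid.

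The ratio of LeuAAG to LeuTAG averaged 1.92 ± 0.0722 (SD, n = 3) for CO and 2.1 ± 0.247 (SD, n = 4) for OID among fathers, and 1.99 ± 0.11 (SD, n = 4) for CO and 1.97 ± 0.0665 (SD, n = 4) for OID among sons. The difference between diets was within its spread (two-sided exact permutation test on the log2 ratio, p = 0.343 in F0 and p = 0.886 in F1). It was not constant either: the reads of the 2 tRFs gave a chi-square of 7.27 per degree of freedom over the 15 libraries, above counting error. The lowest ratio, 1.78, and the highest, 2.35, were both in OID F0 males. Reads that matched more than 1 tRNA were added to each by a weight, and the part of such shared reads in this tracking was not tested. In the genome, LeuAAG and LeuTAG loci lie 82 kb apart on chromosome 7 (n-TLaag4 and n-TLtag1) and 18.9 kb apart on chromosome 14 (n-TLaag8 and n-TLtag2), while n-TLaag6 and n-TLtag3 on chromosome 11 lie 20.3 Mb apart. Nearness was not particular to this pair. On chromosome 13 the LeuAAG locus n-TLaag5 ends at 21170287 and the LeuCAA locus n-TLcaa4 starts at 21172837, and LeuAAG with LeuCAA had an r of 0.373. A link between distance and tracking was not tested.

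LeuCAG, in contrast to this pair, had an r of -0.012 with LeuAAG (permutation p = 0.965, adjusted p = 0.965; rho 0.200). The 9 pairs other than LeuAAG with LeuTAG had r between -0.083 and 0.380, with adjusted permutation p-values of 0.378 to 0.965. With the group means removed, those of them without LeuCAG had r of 0.535 to 0.672, and those with LeuCAG -0.184 to 0.025. Without the 2 libraries farthest from the median of the first tRF, r ran from -0.178 (LeuAAG with LeuCAG) to 0.722 (LeuCAA with LeuTAG). Neither of these forms was given a p-value. CO F1 replicate 1 stood apart in the plot, with LeuAAG at 3982 and LeuCAG at 2030. Without it r of LeuAAG with LeuCAG was 0.319.

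**Figure D4:**
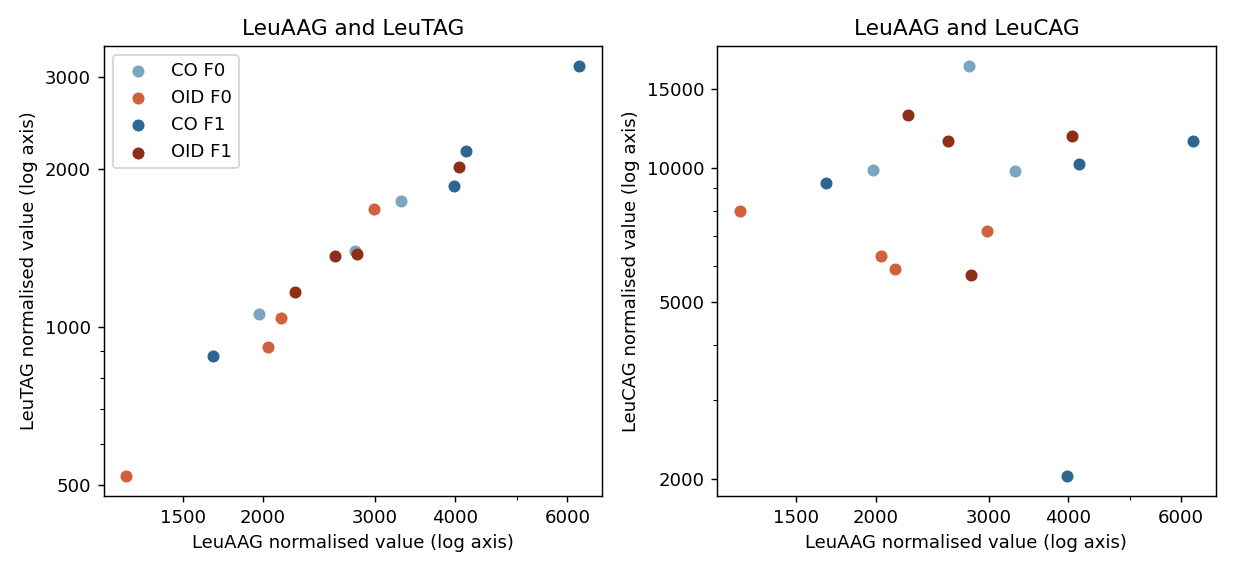
Normalised value of LeuAAG (horizontal, log axis) against LeuTAG (left) and LeuCAG (right), vertical log axes, 1 point per library coloured by group. The LeuTAG points lie along a line (r = 0.988), while the LeuCAG points scatter (r = -0.012) and CO F1 replicate 1 lies lowest.

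Among all tRFs, those most like each leucine tRF were ordered by Pearson's r over the 15 libraries, as a description, since all points share a library and its depth. Beside LeuTAG, LeuAAG was most like IleAAT (r = 0.76), and beside LeuAAG, LeuTAG was also most like IleAAT (0.79). LeuCAA was most like IleAAT (0.72) and GlyTCC (0.64), LeuTAA like GlyACC (0.57) and IleAAT (0.52), and LeuCAG like TrpCCA (0.47) and AsnGTT (0.46). LeuCAG thus had no close counterpart in the table, whereas IleAAT was among the nearest for the other 4.

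Related tRNAs were read beside the leucine ones. The other class II tRFs are SerAGA, SerCGA, SerGCT, SerTGA and SeCTCA. Of these 5, SerCGA alone had an unadjusted p under 0.05 for diet, with a log2 difference of 1.14 (SE 0.36, limma adjusted p = 0.106) in F0 and 0.87 (SE 0.37, limma adjusted p = 0.272) in F1. The share of all tRFs with such a p was 21.3% in F0 and 17% in F1. In F0 SerCGA and SerGCT (0.69) were opposite in sign to LeuCAG. SerAGA (-0.68), SerTGA (-0.24) and SeCTCA (-2.02) had its sign. The list medians were -0.24 in F0 and 0.04 in F1. SeCTCA had a difference of -1.90 between CO F1 and CO F0 with an unadjusted p under 0.05, on at most 3 reads per library. In that comparison 2.13% of all tRFs had such a p.

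The tRFs of the other branched-chain amino acids are IleAAT, IleTAT, ValAAC, ValCAC and ValTAC. In F0 the isoleucine members had log2 differences of 0.02 (IleAAT) and -0.60 (IleTAT), and the 3 valine members had an unadjusted p under 0.05, against 21.3% of all tRFs. ValAAC, ValCAC and ValTAC were higher in OID F0 by 2.01, 1.74 and 1.75 on the log2 scale (limma adjusted p = 0.0733, 0.109 and 0.0733). The list median of 1.74 is a valine value. In F1 none of these 5 had an unadjusted p under 0.05 for diet, against 17% of all tRFs, and the median was 0.31. Between generations of the OID lineage IleTAT differed by 0.97, ValAAC by -1.07 and ValCAC by -1.12, and the interaction of ValAAC was -1.60, each with an unadjusted p under 0.05. The share of all tRFs with such a p was 17% between OID generations and 4.26% for the interaction. In none of the comparisons did a tRF of either list have an adjusted p under 0.05.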

How the data were processed

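Trimming with Trimmomatic and alignment to GRCm38/mm10 were done by the authors (Bowtie2 2.3.4.1 and DESeq2 are named in the submitters' processing notes), who assigned tRNAs with blastn and gave shared reads a weight from the alignment. The deposited values are a normalised signal per tRF and library. The paper calls them TPM, but 1 library sums to more than 1000000, so they were not treated as such. After subtraction of 0.5, all 705 tRF values (100%) were whole multiples of 1 amount per library to within 0.001 reads, which gave the reads and depth. The 4 mature tRNA and 164 miRNA entries were not used.

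Groups and replicate numbers came from the labels. All 47 tRFs were fitted with limma 3.58.1 in R 4.3.3 on log2(value + 1) using the groups in question, and p-values were adjusted by Benjamini-Hochberg (threshold 0.05). On this scale, fold changes of low tRFs are understated. Single values were compared with exact permutation tests, and correlations were permuted 100000 times (scipy 1.17.1). Intervals of shares are 95% Wilson intervals, and floors are 3 reads. These intervals and the chi-squares take each read as counted once, which weighted shared reads need not meet. The scripts were tested on simulated data. The 21 within-group pairs of libraries differed beyond counting error (lowest chi-square per degree of freedom 30.8). Named tRFs are the 5 members, the 2 nearest to each by r, and those of the class II and branched-chain lists with an unadjusted p under 0.05. Members and lists were chosen with earlier results of these data known. Sequences and loci are from RefSeq (GRCm38.p6) and GENCODE M21. Plots were made in matplotlib 3.10.9 (Python 3.11.15).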

Additional observations from a re-analysis of the deposited data

Results flagged for a closer look

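With 36 groups of 4 values examined, 3 had a male far from the others of its group by Dixon's criterion, where chance gives about 1.8. LeuCAG in CO F1 replicate 1 had a normalised value of 2030, on 7841 reads, against 9252 to 11464 in the other CO F1 males, and its gap was 0.876 of the group's range on the log2 scale. LeuCAG in OID F1 replicate 2 had 5726, on 36221 reads, against 11446 to 13115, a gap of 0.836 of the range. LeuTAA in CO F1 replicate 2 had 0 reads and a value of 0.5, against 30.3 to 42.8, a gap of 0.9 of the range, in a library of 35677 tRF reads. This last gap is set by the offset of 0.5 that stands for 0 reads, and a lower level in that male was not detectable at this depth.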

How the results depend on the processing

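No leucine tRF had an adjusted p under 0.05 in any limma fit run. The log2 difference of LeuCAG in F0 ran from -1.14, after rescaling without GlyGCC and GluCTC, to -0.53. That rescaling moved the median of all tRFs in F0 from 0.02 to -0.33. Depth limits LeuCAA and LeuTAA most, with 1 to 3 reads in the shallowest F0 library. With log2 depth as a covariate, the F0 differences were -0.85 (LeuAAG), 0.88 (LeuCAA), -0.86 (LeuCAG), -0.82 (LeuTAA) and -1.03 (LeuTAG). In F1 LeuCAG was then 1.28 and LeuCAA 0.12. The voom fit, and for the limma comparisons the restriction to libraries of at least 100000 tRF reads, were chosen after the data were seen. The planned negative binomial count test was not run, and limma-voom on the recovered reads was run in its place.

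The number of tRFs with an adjusted p under 0.05 was 0 in the main comparisons. For diet in F0 it was 6 with all 4 groups in 1 fit, 5 with limma-voom, and 0 to 2 with each male left out in turn. For diet in F1 it was 0 to 1, and between OID generations 0 to 2, with each male left out in turn. Same-numbered CO and OID males had correlations of deviations from -0.145 to 0.233 in F0 and -0.267 to 0.301 in F1. The numbers were therefore not taken as pairs. Fathers and sons were not checked in this way. Which F0 male fathered each F1 male is not given, and the generation comparisons treat all males as independent. With the replicate number as a block, 0 tRFs were called for diet in F0 and F1 and 1 between CO generations, and the LeuCAG difference in F0 was -0.87. Of the CO F0 males 1 of 3, and of the CO F1 males 2 of 4, correlated best with the OID male of their own number.

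On the log2 share of summed values, 3 pairs of leucine tRFs tracked instead of 1, the added pairs being LeuAAG with LeuCAA (r = 0.654, adjusted permutation p = 0.0302) and LeuCAA with LeuTAG (r = 0.667, adjusted permutation p = 0.0255). The difference in leucine share in F1 was 0.605 with GlyGCC and GluCTC left out of the denominator, and -0.616 to 0.12 with each male left out. It turned positive without CO F1 replicate 3, CO F1 replicate 4 or OID F1 replicate 2. In F0, with the same pair left out of the denominator it was -5.11 (exact permutation p = 0.0571), and with each male left out -1.45 to -0.697.

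Several values changed sign. LeuTAA in F1, at 1.41, was -0.61 with depth as a covariate. The interaction of LeuAAG was -0.12 in libraries of at least 100000 reads, and that of LeuCAA was 0.19 after rescaling without GlyGCC and GluCTC. With each male left out, LeuCAG in F1 ran from -0.03 to 0.82, the interactions of LeuAAG from -0.32 to 0.31, LeuCAA from -0.6 to 0.02 and LeuTAG from -0.16 to 0.46, and the F0 differences in the shares of LeuTAA from -0.0178 to 0.113 and LeuTAG from -0.0332 to 2.83 points. The r of LeuAAG with LeuCAG was 0.346 on shares, 0.029 in the deeper libraries and -0.131 to 0.319 with a library left out. That of LeuCAA with LeuCAG was 0.209 on shares and -0.195 to 0.096, that of LeuCAG with LeuTAA -0.03 to 0.238, and that of LeuCAG with LeuTAG -0.043 to 0.344 with a library left out. The causes were not tested.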
